A study of Mus musculus with 6 samples.

Results

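The genes described here encode the matrix metalloproteinases (MMPs), the ADAM and ADAMTS metalloproteinases, the ADAMTS-like proteins and the tissue inhibitors of metalloproteinases (TIMPs). They were chosen by gene symbol alone, and 83 of the 21936 genes in the deposited tables matched: 22 Mmp, 33 Adam, 19 Adamts, 5 Adamtsl and 4 Timp genes. RNA was measured in whole uterus from females mated at 6 to 8 weeks of age and killed at gestational day 4, where finding the plug makes day 1. The 6 libraries were 3 labelled Mettl3 d/d and 3 labelled Mettl3 f/f. The METTL3 protein is the methyltransferase that places N6-methyladenosine in RNA. In the usual notation f/f is a floxed allele and d/d its deleted form, but the labels name neither a Cre driver nor the deleted exons, nor whether each library came from a separate animal, so the p-values speak only of the spread among these 6 libraries. The comparison asks how the RNA of these genes differs between the labelled genotypes.

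MMPs, ADAMs and ADAMTSs are zinc-dependent peptidases made as inactive precursors. MMPs cut collagens, laminins and other matrix proteins, many ADAMs release growth factors and receptors from the cell surface, and ADAMTS enzymes are secreted and cut proteoglycans and procollagens. TIMPs bind their active sites. In the mouse uterus these families take part in the remodelling of stroma, vessels and epithelium around implantation, and the same gene products come from stromal, epithelial, muscle, vascular and white blood cells.

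A block of Mmp genes lies side by side on chromosome 9, and the promoters of several of them hold the letters TGANTCA, the core that AP-1 factors recognise, which reads the same on both strands. The 120 bases before the RefSeq start (GRCm38.p6, 5′ to 3′) are shown for the block's genes whose promoter held that core, except Mmp20. The core is in capitals. Mmp8, a neighbour without it, is shown as well.
Mmp3, chr9:7445702-7445821, plus strand: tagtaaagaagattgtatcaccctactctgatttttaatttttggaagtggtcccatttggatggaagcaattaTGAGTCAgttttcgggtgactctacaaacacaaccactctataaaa
Mmp7, chr9:7691970-7692089, plus strand: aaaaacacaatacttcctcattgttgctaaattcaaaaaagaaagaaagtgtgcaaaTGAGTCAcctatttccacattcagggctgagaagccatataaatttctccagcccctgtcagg
Mmp10, chr9:7502222-7502341, plus strand: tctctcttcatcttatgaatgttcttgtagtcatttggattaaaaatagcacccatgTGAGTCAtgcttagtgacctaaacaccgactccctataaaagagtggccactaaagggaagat
Mmp12, chr9:7347254-7347373, plus strand: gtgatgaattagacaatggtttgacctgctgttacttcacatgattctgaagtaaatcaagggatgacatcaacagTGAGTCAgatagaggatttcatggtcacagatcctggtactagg
Mmp13, chr9:7272394-7272513, plus strand: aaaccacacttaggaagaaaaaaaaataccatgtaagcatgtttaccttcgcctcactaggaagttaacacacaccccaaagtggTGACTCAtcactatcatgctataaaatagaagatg
Mmp1b, chr9:7388027-7388146, minus strand: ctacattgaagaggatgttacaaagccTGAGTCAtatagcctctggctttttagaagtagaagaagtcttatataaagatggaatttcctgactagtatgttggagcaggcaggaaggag
Mmp8, chr9:7558309-7558428, plus strand: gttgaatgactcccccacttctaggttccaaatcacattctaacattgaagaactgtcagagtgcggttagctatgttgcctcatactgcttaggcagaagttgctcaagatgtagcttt

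The core began 46 bases before the start in Mmp3, 63 in Mmp7 and Mmp10, 44 in Mmp12, 35 in Mmp13 and 93 in Mmp1b. RefSeq promoters were matched for 52 of the 83 genes. Over the 250 bases before the start, the core stood in 7 of 20 Mmp promoters (35.0%, from 7 of 17 matched genes, Mmp20 being the seventh) and in 4 of 19 Adam promoters (21.1%). It stood in none of the 10 Adamts, 4 Adamtsl and 4 Timp promoters. Of all RefSeq promoters of that length 6.75% held it. For Mmp7 and Mmp12, with 2 starts listed each, the promoter with the core is shown. A match describes letters only. Mmp1b, whose promoter holds the core, was listed at 0 in all 6 libraries.

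Values were taken as FPKM, fragments per kilobase of gene scaled to the library's mapped fragments, as the authors deposited them, so levels are per length and can be compared between genes. The tables name no unit and the depth is unknown. The libraries summed to 554282 to 625575 FPKM in labelled d/d and 535043 to 570672 in f/f uteri, with 15978 to 16359 genes above 0. Mettl3 itself was at 42.9, 30.1 and 46.5 FPKM in d/d replicates 1, 2 and 3 and at 30.3, 29.8 and 26.3 in f/f replicates 1, 2 and 3 (limma adjusted p = 0.202). It was not lower in the d/d libraries, but a value over the whole gene does not check the label where the deleted part is not stated, so every d/d below means labelled d/d. Spearman correlations over genes were 0.951 to 0.965 among d/d, 0.984 to 0.988 among f/f libraries and 0.945 to 0.968 between the genotypes. For d/d replicate 1 they were 0.967 to 0.968 with the f/f libraries, above its 0.962 and 0.965 with the other d/d libraries. Defining markers of the uterus were present: the stromal list summed to 1988 to 4737 FPKM in d/d and 3109 to 3570 in f/f libraries, the epithelial list to 885 to 3388 and 1290 to 1480, and the smooth muscle list to 1135 to 4782 and 2507 to 5993. The sum of the endothelial list was lower without overlap, at 156 to 273 FPKM in d/d and 292 to 448 in f/f libraries. So was that of the natural killer cell list, at 2.40 to 29.8 and 41.2 to 78.7. Of the single markers, 6 of 8 and 4 of 6 lay below without overlap (17.8% of all genes did), and the others overlapped. By limma, Cdh5 (adjusted p = 0.0343), Prf1 (0.0289) and the smooth muscle marker Smtn (0.0499) were lower at an adjusted p under 0.05 (3.81% of all genes tested were). The other endothelial, natural killer cell and smooth muscle markers did not reach it. The part of such cell content in the values below was not tested.

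Genes were tested where at least 3 libraries had 1 FPKM or more, on the log2(FPKM + 1) scale with limma, and called at a Benjamini-Hochberg adjusted p under 0.05 over all 12979 genes tested. Of the 83 genes, 46 entered the test and 13 were listed at 0 in all 6 libraries. The other 24 did not reach 1 FPKM in 3 libraries: 16 stayed below 1 FPKM throughout and 8 (Mmp8, Mmp10, Mmp12, Mmp13, Mmp25, Adam23, Adamts3 and Adamts17) reached it in some library. A single gene passed, Adam28, which rose, and 45 did not pass. That is 2.17% of those tested, against 7.3% of all genes tested (3.49% higher, 3.81% lower). At an unadjusted p under 0.05 there were 14 of the 46 (5 higher, 9 lower), 30.4%, against 26.7% of all genes. The log2 fold change (d/d minus f/f) had a median of -0.16 over the 46 genes and 0.02 over all genes. Without f/f replicate 1, 2 or 3, 0 of the 46 passed (8, 9 and 12 at an unadjusted p under 0.05). Of all genes tested, 0%, 0.231% and 0.855% passed there, so most calls over all genes were lost too. Without d/d replicates 1, 2 and 3, 3, 4 and 3 of the 46 passed, against 10.2%, 10.5% and 7.74% of all genes.

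The median SD of a tested gene on the log2 scale was 0.654 among d/d and 0.207 among f/f libraries for the 46 genes, and 0.301 and 0.126 for all genes. The highest of the 6 values was in d/d replicate 2 for 19 of the 46 genes (41.3%, against 21.1% of all genes). It was in d/d replicate 1 for 1 (13.8% of all genes) and in d/d replicate 3 for 7 (29.4% of all genes). In d/d replicate 2, 13 of the 46 were at least 2-fold above the f/f mean (11.1% of all genes were) and 4 were at 0.5 times that mean or less (9.28% of all). For d/d replicate 1 these counts were 5 (7.5% of all) and 17 (7.64% of all). For d/d replicate 3 they were 5 (9.81% of all) and 15 (13.7% of all). The groups did not overlap for 17 of the 46 genes (37.0%, 7 with d/d above and 10 with d/d below), close to the 35.9% of all genes.

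**Figure D1:**
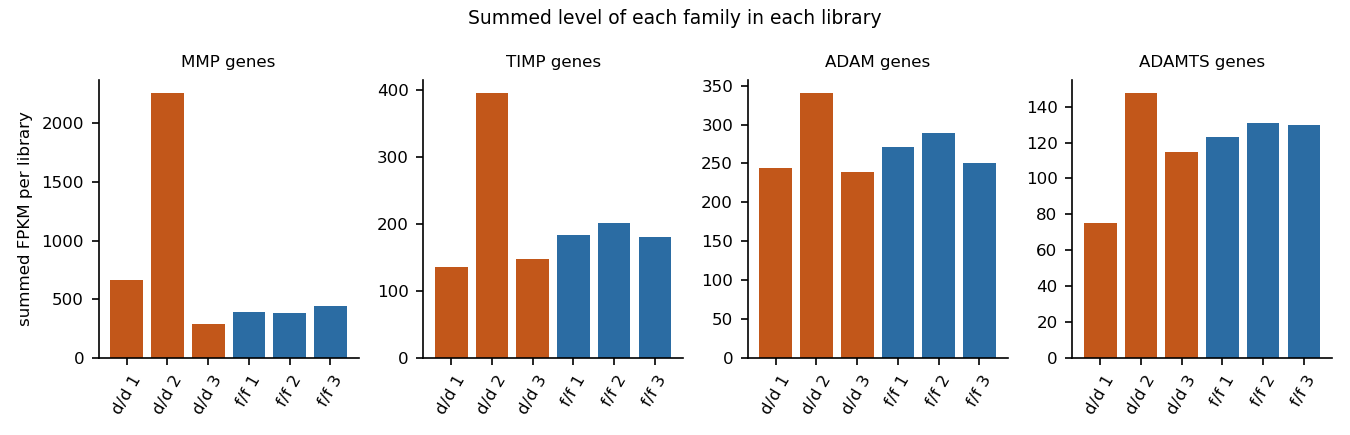
Bars show the FPKM summed over the genes of a family in each library, d/d replicates 1 to 3 and then f/f replicates 1 to 3, each panel with its own axis from 0. The MMP sum reached 2256 FPKM in d/d replicate 2, against 661 and 293 in the other d/d libraries and 384 to 442 in the f/f libraries.

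Summed over the family, the Mmp genes stood at 661, 2256 and 293 FPKM in d/d replicates 1, 2 and 3, against 393, 384 and 442 in f/f replicates 1, 2 and 3. The Timp genes summed to 135, 395 and 148 FPKM in the d/d libraries and to 184, 202 and 180 in the f/f libraries. The d/d values lay on both sides of the f/f values for both families, with replicate 2 above and replicate 3 below. The ratio of the Mmp sum to the Timp sum was 4.89, 5.70 and 1.99 in the d/d libraries and 2.14, 1.90 and 2.45 in the f/f libraries. Mmp2 and Mmp14 together made up 51.5% to 62.1% of the Mmp sum in d/d and 62.6% to 64.1% in f/f libraries. The Adam sums were closer together, at 245, 340 and 239 FPKM in d/d and 271, 290 and 251 in f/f libraries.

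None of the 12 tested Mmp genes passed (7.3% of all genes tested did). The gelatinase gene Mmp2, whose product cuts denatured collagen and basement membrane, had the highest f/f level of all 83 genes. It was at 252, 698 and 56.1 FPKM in d/d replicates 1, 2 and 3 and at 162, 153 and 176 in the f/f libraries, so d/d held both the highest and the lowest values (log2 fold change 0.40, SE 0.84, limma adjusted p = 0.7998). Without d/d replicate 2 its log2 fold change was -0.45. Mmp9, the other gelatinase gene, stood at 3.00, 44.8 and 0.490 FPKM in d/d and at 1.73, 2.56 and 2.54 in f/f libraries (adjusted p = 0.631), and only d/d replicate 2 was far above the rest. Its log2 fold change was 1.00 with all libraries and -0.41 without d/d replicate 2.

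Mmp14 encodes the membrane-bound enzyme that activates the MMP2 precursor. It was at 159, 463 and 115 FPKM in d/d and at 89.3, 87.1 and 107 in f/f libraries. All 3 d/d values lay above all 3 f/f values, and the log2 fold change of 1.11 had a 95% interval of -0.09 to 2.31 (adjusted p = 0.218 by limma). By exact permutation (two-sided) p was 0.1, the smallest that 3 against 3 allow. Mmp16, another membrane-type gene, was low and lay below: 0.592, 1.24 and 1.09 FPKM in d/d against 2.03, 2.13 and 2.81 in f/f libraries (log2 fold change -0.76, adjusted p = 0.0789). Mmp15 was at 42.5, 19.6 and 17.2 FPKM in d/d and 12.4, 12.9 and 17.8 in f/f libraries (adjusted p = 0.241), and Mmp17 overlapped as well (adjusted p = 0.929).

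Among the stromelysins, Mmp11, a stromal enzyme, was at 97.2, 392 and 17.03 FPKM in d/d and at 30.0, 29.7 and 47.2 in f/f libraries (log2 fold change 1.31, interval -1.21 to 3.83 at 95%, adjusted p = 0.465 by limma). The d/d values again lay on both sides of the f/f values. Mmp3 was at 3.42, 252 and 0.231 FPKM in d/d and at 4.06, 6.78 and 2.82 in f/f libraries (adjusted p = 0.750), a value of d/d replicate 2 that was 55.2 times the f/f mean. Without that library the log2 fold change of Mmp3 was -1.19, against 1.06 with it. Mmp11 shares 155 exonic bases with Chchd10 on the other strand.

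Mmp7, or matrilysin, is a small MMP of epithelia. It had the largest log2 fold change of the 46 genes and missed the threshold. It was at 31.1, 182 and 13.4 FPKM in d/d replicates 1, 2 and 3 and at 0.135, 0.0670 and 5.03 in f/f replicates 1, 2 and 3, so the groups did not overlap although f/f replicate 3 stood far above the other f/f libraries. The mean was 75.5 ± 92.7 FPKM in d/d and 1.75 ± 2.85 in f/f libraries (SD, n = 3 each). On the log2 scale the difference was 4.50 with an SE of 1.09 and a 95% interval of 1.87 to 7.13 (adjusted p = 0.0612 by limma). Over the alternatives tried the adjusted p ran between 0.0504 and 0.211. The epithelial marker Epcam rose (261, 165 and 417 FPKM in d/d against 78.9, 95.4 and 94.4 in f/f, adjusted p = 0.0452). Of the 10 epithelial markers it alone passed (7.3% of all genes tested did). Epcam and Elf3 lay above f/f without overlap (18.1% of all genes did). Cldn3 lay below (390, 76.3 and 294 FPKM in d/d against 433, 466 and 483 in f/f), as 17.8% of all genes did, and 7 markers overlapped. In d/d replicate 2, where Mmp7 was highest, the epithelial list summed to 885 FPKM, the lowest of the 6 libraries. The part of epithelial content in the Mmp7 values was not tested. In whole tissue, more cells of a type and more RNA per cell cannot be told apart.

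**Figure D2:**
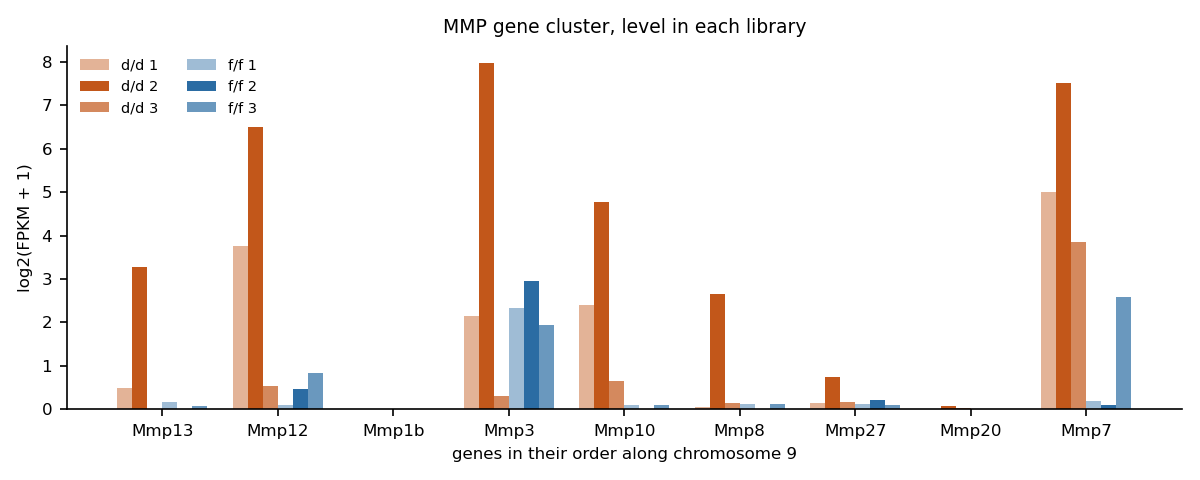
Bars show log2(FPKM + 1) of the 9 Mmp genes of the chromosome 9 block in each library, genes in their order along the chromosome, d/d libraries before f/f libraries. The tallest bar of each gene with a value above 0 belongs to d/d replicate 2, and Mmp1b has none.

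Mmp7 closes the block of 9 Mmp genes, which spans 427072 bp of chromosome 9 (GRCm38, GENCODE M21). In the order Mmp13, Mmp12, Mmp1b, Mmp3, Mmp10, Mmp8, Mmp27, Mmp20 and Mmp7, every gene but Mmp1b had its highest value in d/d replicate 2. Only Mmp3 and Mmp7 had enough values of 1 FPKM or more to be tested. The macrophage elastase gene Mmp12 was at 12.6, 90.0 and 0.438 FPKM in d/d and at 0.0592, 0.370 and 0.781 in f/f libraries, high in 2 of 3 d/d libraries. The stromelysin gene Mmp10 showed a like order, 4.28, 26.3 and 0.567 FPKM in d/d and 0.0757, 0 and 0.0753 in f/f libraries. Every d/d value of Mmp10 was above every f/f value. The collagenase genes Mmp13 and Mmp8 were high in d/d replicate 2 alone: Mmp13 at 0.393, 8.69 and 0 FPKM in d/d and 0.116, 0 and 0.0459 in f/f libraries, and Mmp8 at 0.0258, 5.27 and 0.110 in d/d and 0.0771, 0 and 0.0767 in f/f libraries. Mmp27 reached 0.665 and Mmp20 0.0567 FPKM there. A listed 0 may be a failed estimate.

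The summed macrophage and neutrophil markers were also highest in d/d replicate 2, unlike the natural killer cell list given above. The stromal list peaked there too, at 1988, 4737 and 3425 FPKM in d/d replicates 1, 2 and 3 and 3427, 3570 and 3109 in f/f libraries. So did the mast cell list (34.6 FPKM there) and the lymphocyte list (44.4). The epithelial, gland, smooth muscle and endothelial lists had their highest sum in another library. The 9 macrophage markers summed to 898, 2957 and 457 FPKM in d/d replicates 1, 2 and 3 and to 426, 361 and 328 in f/f libraries. Of them Cd68 rose (limma adjusted p = 0.0310) and 8 did not pass (3.49% of all genes tested were higher). The 10 neutrophil markers summed to 28.6, 1132 and 29.1 FPKM in d/d and to 9.50, 6.58 and 13.3 in f/f libraries, none of the 5 tested passed, and the granule gene Elane was at 0 in all 6. Of that list Ly6g and Mpo were highest in d/d replicate 3, at 25.0 and 1.63 FPKM. S100a9, of that list, was at 7.09, 560 and 0 FPKM in d/d libraries. Mmp8, Mmp9 and Mmp25, known from neutrophils, and Mmp12, known from macrophages, had their highest values in the same library. Mmp25 was at 0.472, 3.53 and 0.128 FPKM in d/d and 0.410, 0.241 and 0.432 in f/f libraries. The part of these cells in the Mmp values was not tested.

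Mmp23, a membrane-anchored family member without the usual hemopexin domain, was at 47.3, 43.9 and 53.3 FPKM in d/d and 67.9, 64.9 and 55.6 in f/f libraries, d/d below f/f in all (log2 fold change -0.38, limma adjusted p = 0.138). Mmp19 was at 3.82, 13.4 and 8.50 FPKM in d/d and 14.5, 13.01 and 16.4 in f/f libraries (adjusted p = 0.232), and Mmp28 at 1.90, 3.10 and 1.57 in d/d and 3.01, 4.11 and 2.91 in f/f libraries (adjusted p = 0.264). Mmp19 shares 789 exonic bases with Tmem198b on the other strand. Mmp21 and Mmp24 stayed below 0.05 FPKM in every library.

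Adam28, known from lymphocytes and epithelia and located on chromosome 14 (68606027 to 68655842, GRCm38), was the gene that passed. It rose to 4.20, 3.09 and 5.11 FPKM in d/d replicates 1, 2 and 3, against 1.28, 0.754 and 1.24 in f/f replicates 1, 2 and 3. Every d/d value was above every f/f value, and d/d replicate 2 was the lowest of the d/d libraries here. That library was the highest of all 6 for 7 of the 12 tested Mmp genes (21.1% of all genes). The means were 4.13 ± 1.01 FPKM in d/d and 1.09 ± 0.294 in f/f libraries (SD, n = 3 each), 3.79-fold higher. On the log2 scale the rise was 1.29 with an SE of 0.22 and a 95% interval of 0.76 to 1.81 (adjusted p = 0.0277 by limma, and 0.1 by the exact permutation test). The call was lost without f/f replicate 1, 2 or 3 (adjusted p = 0.122, 0.129 and 0.0982) and held without any 1 of the d/d libraries. Adam28 has no exonic overlap with another annotated gene. The lymphocyte marker list summed to 3.18, 44.4 and 1.203 FPKM in d/d and to 2.54, 7.10 and 9.12 in f/f libraries, and neither of its 2 tested genes passed. The 10 epithelial markers summed to 2163, 885 and 3388 FPKM in d/d and to 1319, 1290 and 1480 in f/f libraries. As with Adam28, d/d replicate 3 was the highest and d/d replicate 2 the lowest of the d/d libraries in that sum and in Epcam. Of the 10 markers, 7 were highest of all 6 libraries in d/d replicate 3 (29.4% of all genes were). Unlike Adam28, the sum in d/d replicate 2 was below that of every f/f library. The marker Cldn3 was lower in every d/d library than in every f/f library. The part of epithelial content in the Adam28 values was not tested.

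**Figure D3:**
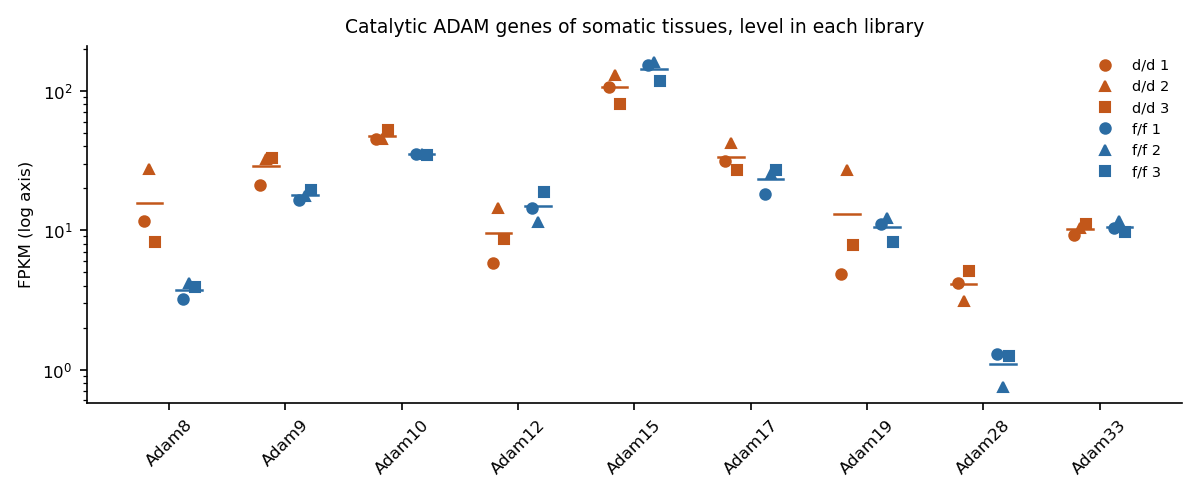
Points show the FPKM (log axis) of the 9 catalytic ADAM genes of somatic tissues in each library, d/d left of f/f, with a line at each group's mean. All d/d points lie above all f/f points for Adam8, Adam9, Adam10, Adam17 and Adam28, of which Adam28 passed the test.

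Among the 9 catalytic ADAM genes of somatic tissues, 1 rose (3.49% of all genes tested did) and 8 did not pass, with a median log2 fold change of 0.42. Of these, 5 had d/d above f/f without overlap (18.1% of all genes did) and none had d/d below (17.8% of all genes). Adam10 and Adam17 encode the main ectodomain sheddases, which release Notch fragments and growth factor ligands. Adam10 was at 44.8, 45.3 and 52.3 FPKM in d/d and 35.4, 35.3 and 34.6 in f/f libraries, a small difference with little spread (log2 fold change 0.42, 95% interval 0.15 to 0.69, limma adjusted p = 0.0749). Adam17 was at 31.1, 41.9 and 27.0 FPKM in d/d and 18.1, 25.4 and 26.8 in f/f libraries, where the nearest values of the groups almost met (log2 fold change 0.49, adjusted p = 0.223). Adam17 shares 311 exonic bases with Iah1 on the other strand.

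Adam8, a sheddase of white blood cells and epithelia, was at 11.5, 27.4 and 8.21 FPKM in d/d and 3.19, 4.15 and 3.88 in f/f libraries. Its log2 fold change of 1.65 (SE 0.41) missed the threshold (limma adjusted p = 0.0650), and it passed without d/d replicate 2 (1.19, adjusted p = 0.0276), without d/d replicate 3 (2.00, adjusted p = 0.0423) and with a variance weight per genotype (adjusted p = 0.0413). Adam9 was at 21.2, 32.2 and 32.8 FPKM in d/d and 16.4, 17.7 and 19.3 in f/f libraries (log2 fold change 0.64, adjusted p = 0.1003), and passed without d/d replicate 1 (0.84, adjusted p = 0.0256).

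The others of this group overlapped. Adam15 had the second highest f/f level of the 83 genes and was at 107, 130 and 80.1 FPKM in d/d and 152, 161 and 118 in f/f libraries (limma adjusted p = 0.243). It shares 1263 exonic bases with a transcript on the other strand. Adam12 stood at 5.76, 14.3 and 8.67 FPKM in d/d and 14.4, 11.4 and 18.7 in f/f libraries, and Adam19 at 4.86, 26.7 and 7.80 in d/d and 11.1, 12.3 and 8.17 in f/f libraries (adjusted p = 0.277 and 0.987). Adam33 was nearly level, at 9.29, 10.3 and 11.01 FPKM in d/d and 10.3, 11.5 and 9.74 in f/f libraries, with a 95% interval of the log2 fold change of -0.37 to 0.29.

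ADAM proteins without a working protease site, such as ADAM11, ADAM22 and ADAM23, act as binding partners in the nervous system. Adam11 was at 1.06, 2.86 and 1.13 FPKM in d/d and 4.21, 4.51 and 5.80 in f/f libraries, with no overlap (log2 fold change -1.17, SE 0.29, limma adjusted p = 0.0628). It passed without d/d replicate 2 (-1.47, adjusted p = 0.0168). Adam22 overlapped (adjusted p = 0.525), and Adam23 was at 0.106, 1.96 and 0.364 FPKM in d/d and 0.384, 0.412 and 0.145 in f/f libraries. Of 21 genes known mainly from testis and sperm, 12 were listed at 0 in all 6 libraries and 2 were tested. Adam5 was at 0.498, 0.482 and 0.266 FPKM in d/d and 1.13, 1.32 and 1.28 in f/f libraries (log2 fold change -0.67, adjusted p = 0.0707). It passed with no filter on low values (adjusted p = 0.0335) and with no intensity trend (adjusted p = 0.0361). Adam1a lay lower too, at 1.36, 1.16 and 1.096 FPKM in d/d and 1.57, 1.39 and 1.74 in f/f libraries (adjusted p = 0.437), and shares 4779 exonic bases with an annotated gene on the same strand.

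**Figure D4:**
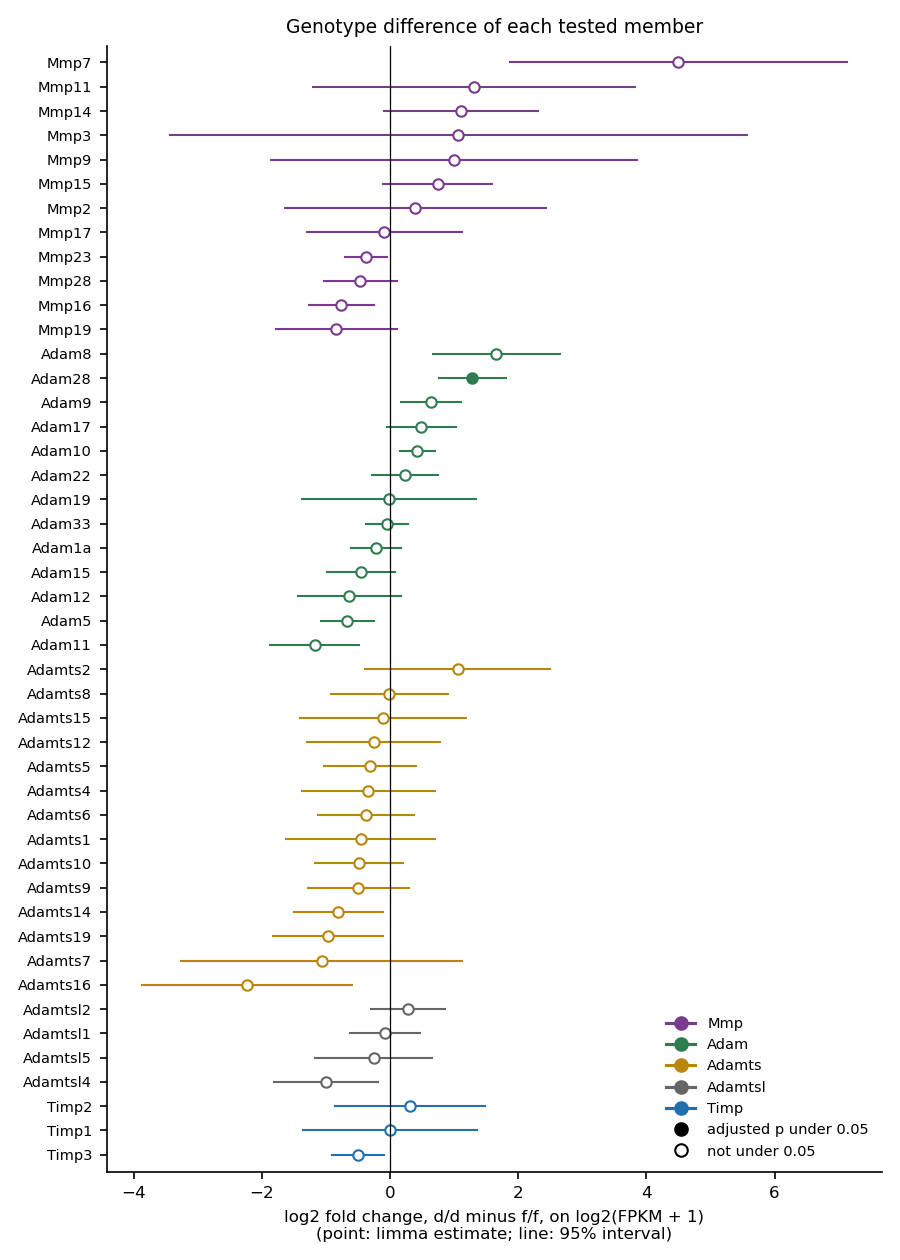
Points show the limma log2 fold change (d/d minus f/f) of each of the 46 tested genes, grouped by family, and lines its 95% interval. Adam28 has the filled point (adjusted p under 0.05), and Mmp3 has the widest interval, -3.44 to 5.56.

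Of 14 tested Adamts genes none passed (7.3% of all genes tested did), and the median log2 fold change was -0.42. The proteoglycanases, which cut versican and aggrecan, overlapped in all 6 tested members, while 35.9% of all genes did not overlap. Adamts1, a progesterone-responsive gene in the ovary, was at 6.19, 12.2 and 28.1 FPKM in d/d and 16.4, 19.1 and 19.3 in f/f libraries, with d/d values on both sides of the f/f values (log2 fold change -0.46, 95% interval -1.62 to 0.71, limma adjusted p = 0.585). Adamts9 was at 4.00, 5.87 and 10.8 FPKM in d/d and 9.87, 10.8 and 7.88 in f/f libraries, and Adamts4 at 2.24, 9.65 and 7.003 in d/d and 7.33, 7.40 and 6.97 in f/f libraries (adjusted p = 0.377 and 0.655). Adamts5, Adamts8 and Adamts15 had log2 fold changes of -0.32, -0.01 and -0.11. Their substrate gene Vcan was at 21.9, 62.5 and 34.6 FPKM in d/d and 50.3, 50.2 and 42.5 in f/f libraries (adjusted p = 0.541).

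The procollagen N-propeptidase genes, which trim fibrillar collagens, did not pass in either of 2 tested members. Adamts2 was at 7.05, 34.4 and 34.3 FPKM in d/d and 10.4, 11.4 and 6.89 in f/f libraries, high in 2 of 3 d/d libraries (log2 fold change 1.06, limma adjusted p = 0.310). It passed without d/d replicate 1 (1.77, adjusted p = 0.0190). Adamts14 was at 0.763, 2.45 and 2.29 FPKM in d/d and 3.54, 3.77 and 3.95 in f/f libraries, below without overlap (log2 fold change -0.81, adjusted p = 0.137). Adamts3 was at 0.441, 1.59 and 2.57 FPKM in d/d and 0.521, 0.906 and 0.312 in f/f libraries and was not tested.

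Adamts16 had the most negative log2 fold change of the 46 genes. It was at 1.82, 0.134 and 0.0384 FPKM in d/d and 3.09, 3.65 and 17.3 in f/f libraries, with no overlap but with f/f replicate 3 far above the other f/f libraries. On the log2 scale the difference was -2.24 with an SE of 0.68 and a 95% interval of -3.87 to -0.60 (adjusted p = 0.0982 by limma). Adamts17 ran the same way among low values, at 0.634, 0.130 and 0.0104 FPKM in d/d and 0.715, 1.02 and 0.969 in f/f libraries. The 5 gland markers summed to 60.2, 12.1 and 2.07 FPKM in d/d and to 51.5, 65.2 and 73.7 in f/f libraries. As with Adamts16, f/f replicate 3 was highest and d/d replicate 3 lowest, but d/d replicate 1 stood above f/f replicate 1. Of the 3 markers tested, Spink1 fell (limma adjusted p = 0.00365), as 3.81% of all genes did, and Foxa2 and Cxcl15 overlapped. The part of gland content in the Adamts16 values was not tested. Adamts19 was at 0.804, 1.93 and 3.84 FPKM in d/d and 5.13, 4.68 and 4.53 in f/f libraries, below without overlap (log2 fold change -0.97, adjusted p = 0.148), and passed without d/d replicate 3 (-1.33, adjusted p = 0.0429). Adamts7 was near the f/f values in d/d replicates 1 and 2 (15.2 and 24.4 FPKM) and at 1.01 in d/d replicate 3, against 20.8, 18.1 and 17.4 in f/f libraries (adjusted p = 0.494). Adamts10, at 22.9, 24.0 and 11.6 FPKM in d/d and 26.2, 29.7 and 23.9 in f/f libraries, had the highest f/f level of the family (adjusted p = 0.318), and Adamts6 and Adamts12 overlapped (adjusted p = 0.470 and 0.743).

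ADAMTS-like proteins share the ancillary domains of ADAMTS enzymes, lack the protease domain and bind microfibrils. Adamtsl4 was at 4.36, 9.23 and 4.60 FPKM in d/d and 11.7, 17.9 and 9.25 in f/f libraries, where the closest values differed by little (log2 fold change -1.001, SE 0.34, limma adjusted p = 0.122). It passed without d/d replicate 2 (-1.30, adjusted p = 0.0444). Adamtsl1, Adamtsl2 and Adamtsl5 overlapped, with log2 fold changes of -0.07, 0.28 and -0.26, and Adamtsl3 stayed below 1 FPKM.

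None of the 3 tested inhibitor genes of the Timp family passed (7.3% of all genes tested did). Timp3, whose product binds the matrix and also inhibits ADAM17 and ADAMTS enzymes, was at 42.0, 51.1 and 34.5 FPKM in d/d and 66.1, 57.0 and 56.8 in f/f libraries. All d/d values lay below all f/f values (log2 fold change -0.50, SE 0.17, interval -0.91 to -0.09 at 95%, adjusted p = 0.123 by limma). Timp3 lies within Syn3, on the other strand, and shares 1733 exonic bases with it. Timp2, needed with MMP14 to activate the MMP2 precursor, was at 82.5, 289 and 83.7 FPKM in d/d and 92.0, 110 and 103 in f/f libraries, high in d/d replicate 2 as Mmp2 and Mmp14 were (log2 fold change 0.31, adjusted p = 0.720, and -0.28 without d/d replicate 2). Timp1 was at 10.7, 54.9 and 29.4 FPKM in d/d and 25.5, 34.7 and 20.1 in f/f libraries (adjusted p = 0.996). Timp4 stayed below 0.5 FPKM.

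**Figure D5:**
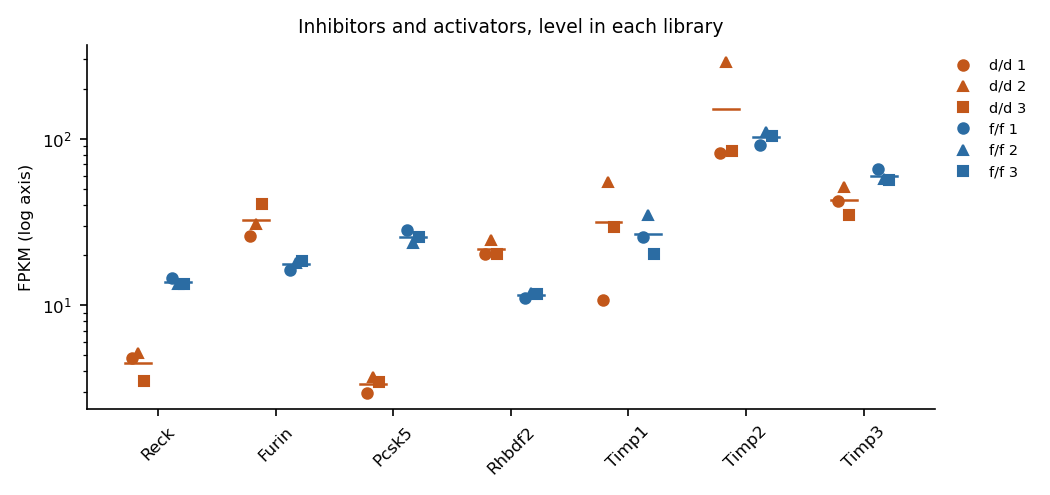
Points show FPKM (log axis) in each library, d/d left of f/f, with a line at each group's mean, for Reck, Furin, Pcsk5, Rhbdf2 and 3 Timp genes. Reck and Pcsk5 are lower and Furin and Rhbdf2 higher in all 3 d/d libraries, while Timp1 and Timp2 overlap.

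Outside the families, lists of genes that act on these proteases were read from the same fit. Reck, a membrane-anchored inhibitor of several MMPs and of ADAM10, fell to 4.81, 5.11 and 3.47 FPKM in d/d replicates 1, 2 and 3, against 14.5, 13.3 and 13.3 in f/f replicates 1, 2 and 3. The d/d libraries were close to one another and far below the f/f libraries (4.47 ± 0.873 and 13.7 ± 0.690 FPKM, SD, n = 3 each, log2 fold change -1.44, SE 0.17, limma adjusted p = 0.0118). Without f/f replicate 1, 2 or 3 its adjusted p was 0.0977, 0.0874 and 0.0649. Of the 7 tested genes of the inhibitor and clearance list, Reck was lower (3.81% of all genes tested were), none was higher and 6 did not pass. A2m, a broad protease trap, was at 32.3, 7.52 and 19.2 FPKM in d/d and 5.23, 2.38 and 4.18 in f/f libraries (adjusted p = 0.0775), and Spock2 at 27.5, 9.18 and 4.77 in d/d and 49.3, 62.6 and 50.1 in f/f libraries (adjusted p = 0.0666).

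Proprotein convertases remove the inhibitory propeptide of membrane-type MMPs, ADAMs and ADAMTS enzymes. Of 4 convertase genes tested, 1 rose, 1 fell and 2 did not pass (of all genes tested 3.49% were higher and 3.81% lower). Pcsk5 fell to 2.96, 3.71 and 3.42 FPKM in d/d libraries, against 28.1, 23.5 and 25.5 in f/f libraries, with a narrow spread in both groups. Its means were 3.36 ± 0.379 FPKM in d/d and 25.7 ± 2.29 in f/f libraries (SD, n = 3 each), 7.65-fold higher in f/f, and the log2 fold change was -2.61 with an SE of 0.14 (adjusted p = 0.00365 by limma). The call was lost without f/f replicate 1 (adjusted p = 0.0549) and held without each other library. Furin rose to 26.0, 30.6 and 40.2 FPKM in d/d libraries, against 16.2, 18.0 and 18.4 in f/f libraries (log2 fold change 0.82, SE 0.18, adjusted p = 0.0479). This value lay close to the threshold, and 10 of the 16 alternatives tried put it above, among them each left-out f/f library and a left-out d/d replicate 2 (adjusted p = 0.0600). Pcsk6 was at 3.58, 6.37 and 15.8 FPKM in d/d and 1.24, 2.70 and 1.37 in f/f libraries (adjusted p = 0.0991).

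Among 8 tested partners of ADAM10 and ADAM17, 1 rose (3.49% of all genes tested did) and 7 did not pass. Rhbdf2, the inactive rhomboid that carries ADAM17 to the cell surface, rose to 20.2, 24.5 and 20.1 FPKM in d/d libraries, against 10.95, 11.8 and 11.7 in f/f libraries (log2 fold change 0.85, SE 0.13, limma adjusted p = 0.0230). Without f/f replicate 1, 2 or 3 its adjusted p was 0.129, 0.118 and 0.0957. Its relative Rhbdf1 was at 28.9, 36.6 and 22.5 FPKM in d/d and 26.9, 26.1 and 24.0 in f/f libraries (adjusted p = 0.629). Tspan33, a tetraspanin that binds ADAM10, was at 5.56, 6.33 and 10.9 FPKM in d/d and 1.51, 1.72 and 3.51 in f/f libraries (adjusted p = 0.0544). Of 9 tested genes whose products ADAMs shed, 1 fell (3.81% of all genes tested did) and 8 did not pass. It was Areg, an EGF family ligand gene released by ADAM17 (log2 fold change -3.15, limma adjusted p = 0.0118). Its adjusted p was 0.0659 when f/f replicate 1 was left out and 0.0630 when replicate 2 was. Hbegf was at 6.13, 4.92 and 6.47 FPKM in d/d and 3.17, 2.16 and 3.92 in f/f libraries (adjusted p = 0.0842).

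No gene of the plasmin system passed among 5 tested (7.3% of all genes tested did). Plau, the urokinase gene, was at 6.00, 21.5 and 37.4 FPKM in d/d and 5.53, 4.83 and 4.09 in f/f libraries, d/d above without overlap (limma adjusted p = 0.141). Plat, the tissue activator gene, was at 324, 190 and 27.6 FPKM in d/d and 48.6, 52.7 and 65.2 in f/f libraries (adjusted p = 0.452), so d/d replicate 3 stood below the f/f values and the other two above. Bmp1, the single astacin gene tested, was level (log2 fold change 0.04, adjusted p = 0.941).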

How the data were processed

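The authors deposited 1 table per library with 1 value for each of 21936 genes, taken as FPKM. The unit was inferred from the decimal values and from Cufflinks. Per the submitters' processing notes, the tools were HISAT2 2.2.1 and Cufflinks 2.2.1, with both mm9 and mm10 listed as builds. Annotation, options and strand use are not stated. Cufflinks divides fragments that fit several places, so values of close paralogs (Mmp3 and Mmp10, Adam1a and Adam1b) depend on that step. Without strand, overlapping genes cannot be told apart.

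Of rows sharing a symbol the one with the highest mean was kept (36 removed). Tests used limma 3.58.1 (R 4.3.3), with genotype as the single term and moderated variances that follow mean intensity, on log2(FPKM + 1), which understates changes of low genes. Genes needed 1 FPKM in 3 libraries. The code was tested on simulated data for the sign and size of known changes. That check set no limit on the share of false calls. Exact permutation tests used scipy 1.17.1. The absolute depth is unknown, so no counting interval is given. Members, lists and tests were chosen with earlier results of these data known. Genes named were those called, every Timp gene, the highest and lowest-p members of each family and those whose call an alternative changed. Those with some values of 0 were named in part. No values are given for Adam1b, Adam3, Adam7, Adam30, Adam32 and Adamts13, which were below 1 FPKM in every library. Other members were named after their values were seen. Coordinates are from GENCODE M21 and promoters from RefSeq, both GRCm38. Protein motifs planned for these genes were not analysed here. The alternatives were 10 settings and the 6 libraries left out in turn.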

Additional observations from a re-analysis of the deposited data

How the results depend on the processing

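Over all genes, 453 were called higher and 494 lower. With no filter on low values 291 were higher and 392 lower. Leaving out 1 library moved these counts between 0 and 729 higher and between 0 and 748 lower, the 0 coming without f/f replicate 1, where limma found 2292 genes at an unadjusted p under 0.05. Replicate numbers are shared between genotypes, and the labels do not say whether they pair the libraries. Deviations of same-numbered libraries correlated at -0.02, 0.02 and -0.021, and those of other-numbered libraries at -0.141 to 0.125. With 3 libraries per genotype these values cannot decide whether the libraries are paired. With the replicate block 51 genes were higher and 49 lower, 0 of the 46 members were called (14 at an unadjusted p under 0.05), and Adam28 had an adjusted p of 0.0716. Under that block Reck (0.0551), Rhbdf2 (0.0817), Areg (0.0607) and Furin (0.0908) also lost their calls, and Pcsk5 kept its call (0.0379). Members called higher were 2 with a variance weight per genotype (Adam28, Adam8) and 0 to 3 with 1 library left out. Members called lower were 1 with no filter and 1 with no intensity trend (Adam5 in both), and 0 to 2 with 1 library left out. Adam28 was called under 12 of 16 alternatives.

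Of the 46 tested members, 30 kept the sign of their log2 fold change under every alternative tried and 16 did not. Leaving out 1 library moved Mmp2 between -0.45 and 1.36, Mmp3 between -1.19 and 2.65, Mmp9 between -0.41 and 2.06 and Mmp17 between -0.42 and 0.48. It moved Adam19 between -0.67 and 0.46 and Adam33 between -0.0941 and 0.0186. For the Adamts genes the ranges were -0.98 to 0.0265 (Adamts1), -0.69 to 0.17 (Adamts4), -1.79 to 0.0442 (Adamts7), -0.39 to 0.30 (Adamts8, and 0.11 with quantile normalization), -0.74 to 0.12 (Adamts12) and -0.76 to 0.25 (Adamts15). They were -0.27 to 0.12 for Adamtsl1, -0.67 to 0.00791 for Adamtsl5, -0.53 to 0.60 for Timp1 and -0.28 to 0.61 for Timp2. The cause was not tested. The depth is unknown, so low values such as those of Mmp8, Mmp13 and Mmp20 carry no counting limit.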
